A study of Mus musculus with 12 samples.

Results

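Chromosome 8 held 36566 of the 438517 ATAC-seq peaks called over 12 libraries of mouse embryonic stem cells (ESCs), and all of them are described here. The members were chosen by position alone, as every peak placed on chromosome 8. The chromosome itself was singled out because its share of the peak lists was already known to be high, so that share is given as a description, without a test. In every library more than its part of the sequence was reached: chromosome 8 makes up 4.91% of the sequenced bases of the 19 autosomes and X, and it took 6.46–7.0% of the peaks of asynchronous ESCs, 7.76–9.02% of those of mitotic ESCs and 8.67–10.8% of those of sorted mitotic chromosomes. In sorted chromosomes the peaks were in excess in every 10-Mb stretch, most of all from 10 to 30 Mb and from 120 to 130 Mb. From 20 to 30 Mb a large part of the peaks lay in 1 window whose counts are uncertain. In asynchronous cells 1 gene-poor stretch fell below the other autosomes in all 4 libraries. With all libraries in the fits, no difference between WT and Suv39h dn ESCs on chromosome 8 passed a test adjusted over all chromosomes or windows.

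The study asked how loss of trimethylation of histone H3 at lysine 9 alters mitotic chromosomes. Its ATAC-seq compared WT ESCs (line WT26) with Suv39h dn ESCs (line DN57), which lack both Suv39h1 and Suv39h2, 1 line per genotype. Each line was assayed in duplicate as asynchronous ESCs, as mitotic ESCs and as sorted mitotic chromosomes, so that 6 groups held 2 libraries each. Asynchronous and mitotic libraries were made from 50000 cells and the chromosome libraries from 2000000 sorted chromosomes. Mitotic cells and chromosomes came from cultures arrested with 0.1 µg/ml demecolcine for 6 h, a microtubule poison that stops cells in metaphase, and collected by shake-off. The chromosomes were released into polyamine buffer, sorted by flow cytometry as a mixture of all chromosomes after staining with chromomycin A3 and a Hoechst dye. Both lines are male by the study's methods, which also state that the lines were tested for karyotype. Nothing in the labels says that duplicates were separate cultures, so p-values measure the spread between these libraries, which may be technical.

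ATAC-seq marks DNA that the Tn5 transposase can enter. In interphase these places are mostly promoters, where transcription starts, and distal sites such as enhancers and Ctcf-bound insulators. In mitosis many transcription factors leave the chromosomes while promoters keep part of their accessibility. Cultured mouse ESCs are known to gain whole chromosomes, chromosomes 8 and 11 among the most frequent, and cells with an extra copy can overtake a culture. Chromosome 8 carries the pluripotency marker Zfp42 (Rex1), the insulator factor Ctcf, the chromatin remodeller Smarca5 and large clusters of defensin and carboxylesterase genes. In bulk libraries, extra copies of a chromosome in a share of the cells and more accessible DNA per copy cannot be told apart.

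The sequences below show what the peaks of chromosome 8 were made of. Each is read from the plus strand of GRCm38.p6, the assembly that mm10 names, in lower case with motif matches in capitals. The first 3 lie at or near Zfp42 and differ in the preparations that held them: the promoter upstream of the annotated start in 10 libraries, a site 14005 bp upstream in the 8 libraries of whole cells, and a site 55100 bp downstream of the start, past the end of the gene, in the 4 asynchronous libraries.

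Zfp42 promoter, chr8:43306981-43307095: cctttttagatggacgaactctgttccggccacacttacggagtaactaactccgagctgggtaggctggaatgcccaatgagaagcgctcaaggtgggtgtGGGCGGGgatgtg

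Zfp42 upstream site, chr8:43320885-43321085: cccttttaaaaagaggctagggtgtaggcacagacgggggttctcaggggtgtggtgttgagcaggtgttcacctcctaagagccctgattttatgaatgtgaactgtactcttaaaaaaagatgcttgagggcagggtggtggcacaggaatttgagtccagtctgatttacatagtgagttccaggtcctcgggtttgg

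Zfp42 downstream site, chr8:43251736-43251936: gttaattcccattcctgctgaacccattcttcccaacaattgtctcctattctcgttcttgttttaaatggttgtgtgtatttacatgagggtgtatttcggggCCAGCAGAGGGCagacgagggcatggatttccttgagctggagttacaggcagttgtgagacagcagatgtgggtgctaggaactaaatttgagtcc

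The capitals mark the Sp/Klf motif GGGCGGG in the promoter and the Ctcf motif in the downstream site, which was searched as CCA, 2 free bases, AG, 2 free bases and GGC. Both strands were searched. The next 2 sequences come from regions called in both Suv39h dn libraries of a preparation and in neither WT library, an intron of Tfdp1 in asynchronous cells and the promoter side of Afg3l1 in sorted chromosomes.

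Tfdp1 intron, chr8:13361951-13362151: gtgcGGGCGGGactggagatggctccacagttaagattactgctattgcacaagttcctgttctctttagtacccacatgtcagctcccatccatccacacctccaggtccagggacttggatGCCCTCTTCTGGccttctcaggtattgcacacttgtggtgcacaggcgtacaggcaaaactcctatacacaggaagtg

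Afg3l1 promoter side, chr8:123477637-123477837: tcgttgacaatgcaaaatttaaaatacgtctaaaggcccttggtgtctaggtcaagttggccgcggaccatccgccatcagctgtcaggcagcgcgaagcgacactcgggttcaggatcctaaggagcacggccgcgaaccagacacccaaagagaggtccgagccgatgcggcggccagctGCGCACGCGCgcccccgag

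In the Tfdp1 intron the capitals mark one Sp/Klf match and one Ctcf match on the minus strand, and at Afg3l1 they mark the Nrf1 motif, searched as GCGC, 1 free base and TGCGC and matched on the minus strand. The last sequence lies under a peak found in all 12 libraries and is partly repeated DNA, which limits what a peak there can say about chromosome 8.

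Intergenic, nearest Cd209a, chr8:3754350-3754550: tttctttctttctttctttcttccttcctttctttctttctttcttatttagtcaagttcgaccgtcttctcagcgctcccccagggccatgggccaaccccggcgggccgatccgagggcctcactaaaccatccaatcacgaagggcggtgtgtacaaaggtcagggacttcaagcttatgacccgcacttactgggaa

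Of the 201 bases near Cd209a, 54 lie in 21-base words shared with the 18S ribosomal RNA copy Rn18s-rs5 on chromosome 17. Whether fragments from ribosomal genes were placed there was not tested.

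Before the values, the lists themselves differed in length. They held 22344 to 80602 peaks in asynchronous ESCs, 1746 to 14328 in mitotic ESCs and 44885 to 67027 in sorted chromosomes, and the shortest by far was replicate 1 of Suv39h dn mitotic ESCs. That library placed 156 peaks on chromosome 8, so its ratios rest on few peaks. A peak was kept where its q-value was below 0.05, and the lowest −log10 q on chromosome 8 was 1.30–1.33 in the 12 lists. The 10 peaks of each list nearest to that limit had 2.79- to 4.35-fold enrichment. Identical coordinates were shared by at most 5 chromosome 8 peaks of any duplicate pair, so no pair of lists was a copy. Promoter peaks at Suv39h1 were found in 2 WT libraries and no Suv39h dn library, and at Suv39h2 in 4 WT and 2 Suv39h dn libraries, which does not check the deletions, since the extent of each deletion is not given in the sources used here. The ESC genes Pou5f1, Nanog and Sox2 had a promoter peak in 5, 2 and 9 of the 12 libraries.

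The mean share of the list taken by chromosome 8 rose in the order asynchronous, mitotic, sorted. In asynchronous ESCs it was 7.0% and 6.73% for the WT pair and 6.91% and 6.46% for the mutant pair, Suv39h dn. In mitotic ESCs the WT pair had 8.75% and 7.76% and the Suv39h dn pair 9.02% and 7.83%. Sorted chromosomes had 10.0% and 10.8% for the WT pair, with 8.67% and 10.3% for Suv39h dn. Every asynchronous library lay below every mitotic and sorted one, mitotic and sorted libraries overlapped, and genotypes overlapped in sorted chromosomes and in mitotic and asynchronous cells. Set against its 4.91% of the sequence, chromosome 8 was over-represented 1.32- to 1.43-fold in asynchronous cells, 1.58- to 1.84-fold in mitotic cells and 1.77- to 2.2-fold on sorted chromosomes. It carries 4.78% of the protein-coding genes, so gene number and sequence length gave nearly the same yardstick.

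Peak counts on the chromosome of asynchronous ESCs were 1560 and 3821 for the WT pair and 1728 and 5179 for the Suv39h dn pair. Mitotic ESCs had 566 and 1031 for WT, with 156 and 1119 for Suv39h dn. Sorted chromosomes had 4549 and 7141 for WT, with 5109 and 4607 for Suv39h dn. Counts within a duplicate pair differed by a larger factor than shares did, except in the Suv39h dn sorted pair. Per megabase, chromosome 8 ranked first or second of 20 chromosomes in every library and first in all 4 sorted libraries. On the log2 scale its share was 0.30 higher in mitotic than in asynchronous cells and 0.55 higher in sorted chromosomes, against a pooled SD between duplicates of 0.12 (12 libraries in 6 groups of 2). The gap between sorted and asynchronous was 0.60 for distal peaks, 0.42 for promoter peaks and 0.56 with the densest 10% of windows left out, so it did not rest on a few windows. Between genotypes the log2 difference, Suv39h dn minus WT, was −0.04 in asynchronous cells, 0.03 in mitotic cells and −0.14 in sorted chromosomes, and in each the duplicates overlapped.

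**Figure D1:**
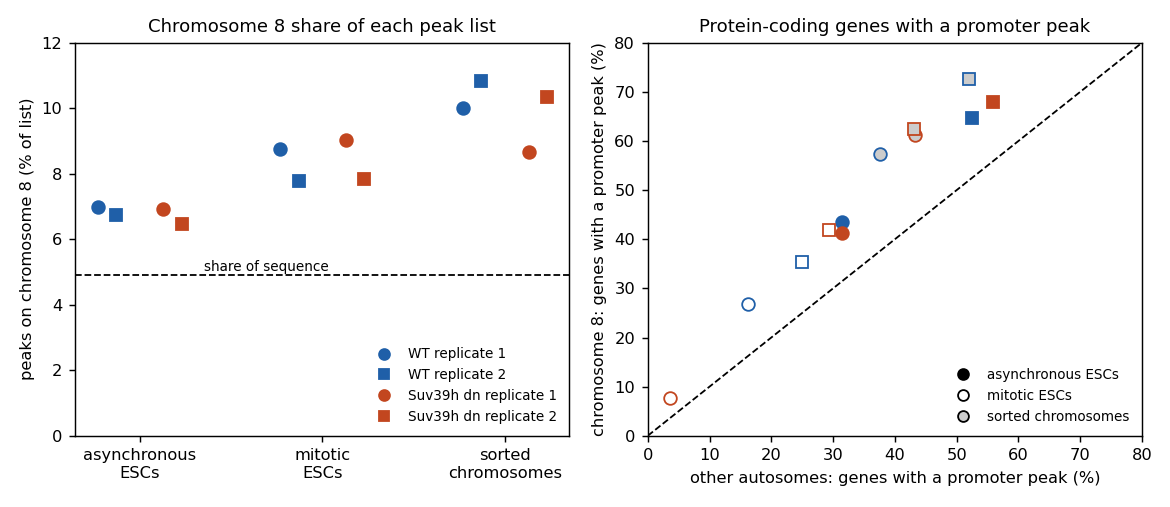
Share of each library's peaks that lies on chromosome 8 (percent, vertical axis) by preparation, and, in the second panel, share of protein-coding genes with a promoter peak on chromosome 8 (percent, vertical axis) against the other autosomes (percent, horizontal axis); each point is 1 library, colour marks the genotype and shape the replicate. Chromosome 8 takes 6.46–7.0% of asynchronous, 7.76–9.02% of mitotic and 8.67–10.8% of sorted lists, all above its 4.91% of the sequence (dashed line), and in the second panel all 12 libraries lie above the line of equal shares.

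A peak list also carries information on the DNA between peaks. MACS2 compares the fragments at a summit with a local background, and fragments and background were recovered for 437289 peaks over all chromosomes. They could not be recovered for 74 peaks of chromosome 8. The background around distal peaks, those over 1000 bp from every annotated transcript start, follows how many fragments fall in the surroundings of these peaks. It is floored at the genome-wide value, which draws a ratio between chromosomes towards 1. It also includes fragments of nearby peaks, which can raise the ratio where peaks are dense. The size of either effect is not known. By arithmetic alone, 1 extra copy over a pair gives 1.5 and 1 copy over a pair gives 0.5.

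The distal background of chromosome 8 was above that of the other autosomes in every library. For asynchronous ESCs the ratio was 1.31 and 1.28 in the WT pair, with 1.31 and 1.25 in the Suv39h dn pair. For mitotic ESCs it was 1.23 and 1.25 with WT cells, against 1.44 and 1.21 with mutant cells. For sorted chromosomes the WT pair gave 1.32 and 1.35, against 1.32 and 1.37 for Suv39h dn. All 4 sorted libraries stood above all 4 asynchronous ones, by little, mitotic libraries overlapped both, and the genotypes overlapped in whole cells and in sorted chromosomes. Chromosome 8 ranked first of 20 chromosomes in 9 libraries and second, after chromosome 11, in 3 sorted libraries. The X chromosome, present once in male cells, had ratios of 0.68–1.17, above the 0.5 of the arithmetic, and 1.17 came from the shortest list. Chromosome 11 had 1.02–1.09 in WT cells, 1.13–1.26 in Suv39h dn cells and 1.22–1.5 in sorted chromosomes. Around promoter peaks the background ratio of chromosome 8 was 1.30–1.80.

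An exact permutation test of the log2 distal background ratio, permuting genotypes within preparations, gave a difference of 0.03 (Suv39h dn minus WT, two-sided p = 0.759, adjusted p = 0.877 over 20 chromosomes). Of all 20 chromosomes 0% were called, and 5% at an unadjusted p under 0.05. By preparation, sorted chromosomes stood 0.06 above asynchronous cells on the log2 scale. An exact permutation test of the spread among all 3 preparations, permuted within genotypes, gave p = 0.412 and adjusted p = 0.458. In that test 50% of the chromosomes were called. Without the shortest list the exact permutation test of preparations passed, with adjusted p = 0.0296. It also passed with a stricter q-value, with means in place of medians and around promoter peaks, where the log2 differences were 0.56, 0.22 and 0.30.

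Regions called in all 4 libraries of a preparation, merged within that preparation and with fragments recovered at every peak, give a further measure, the number of fragments at the summit. Chromosome 8 held 787 of 10269 such regions in asynchronous cells, 74 of 682 in mitotic cells and 825 of 5896 in sorted chromosomes. The median fragment number on chromosome 8, over that of the other autosomes, was 1.06–1.21 in asynchronous cells, 1–1.15 in mitotic cells and 1.14–1.33 in sorted chromosomes. Both WT sorted libraries had 1.33 and the Suv39h dn sorted libraries 1.14 and 1.25, which did not overlap. Over all preparations the genotype difference was −0.09 on the log2 scale (exact permutation test, two-sided, p = 0.102, adjusted p = 0.595, n = 6 libraries per genotype), and 0% of chromosomes were called, adjusted or not.

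**Figure D2:**
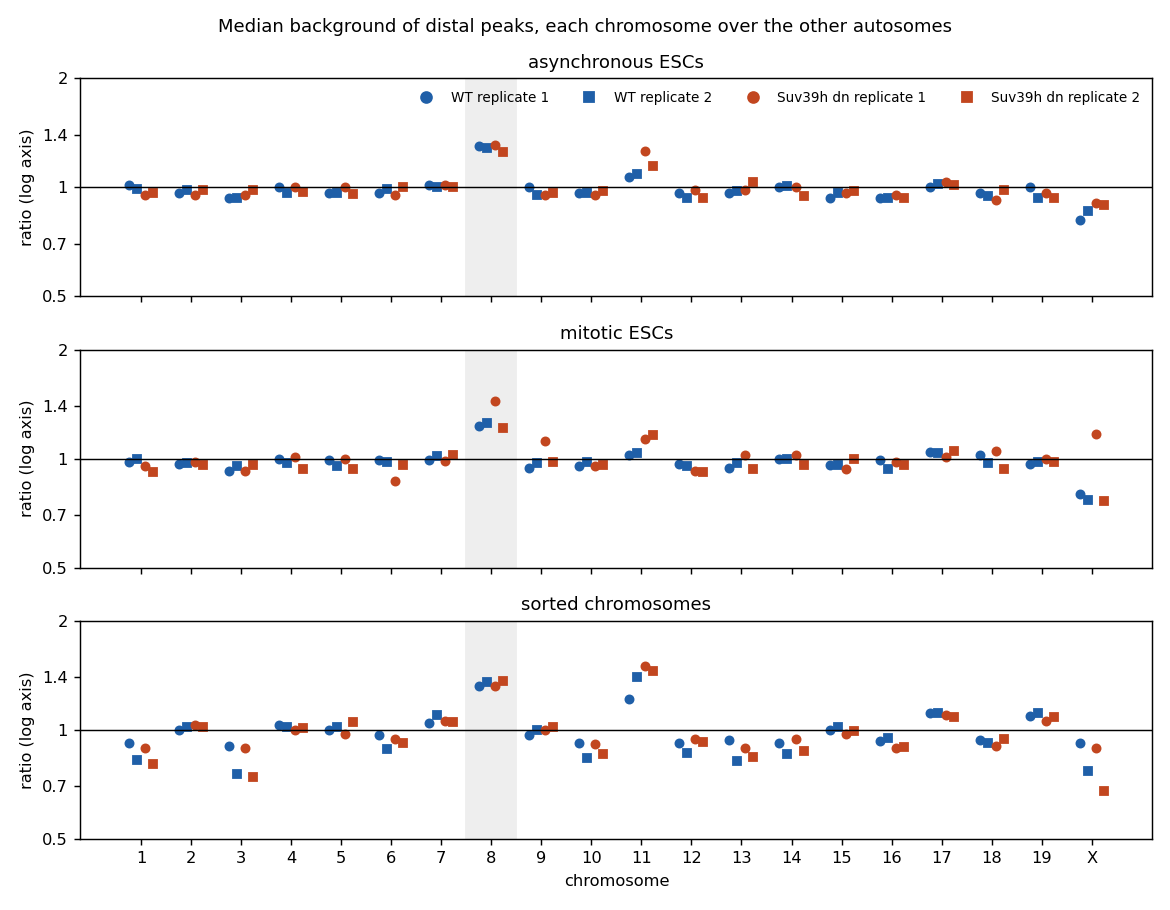
Distal background of each chromosome over that of the other autosomes (ratio, vertical log axis) for the 12 libraries, 1 panel per preparation, with chromosome 8 shaded; each point is 1 library and the line marks a ratio of 1. Chromosome 8 lies at 1.21–1.44 in every library, and chromosome 11 reaches 1.5 in sorted chromosomes.

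How evenly the excess was spread was examined in 13 stretches of 10 Mb, each set against the other autosomes. In all 4 asynchronous libraries the distal background was above the other autosomes in 13 of 13 stretches, with ratios from 1.05 to 1.85. Elsewhere 33.6–39.8% of the 244 autosomal stretches were above 1 in these libraries. Mitotic libraries had 12, 13, 12 and 13 such stretches, WT first, and sorted libraries had 9, 9, 9 and 8. Peak density gave another order, above the other autosomes in 12, 11, 12 and 12 stretches of the asynchronous libraries, in 12 of each mitotic library and in 13 of each sorted library. Chromosome 11 was the only other autosome with every stretch above 1, in both Suv39h dn asynchronous libraries and in replicate 2 of Suv39h dn mitotic ESCs.

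Asynchronous and sorted libraries differed in how even the chromosome was. The highest stretch over the lowest gave 1.28–1.76 for the background in asynchronous cells and 3.28–3.67 in sorted chromosomes. Chromosome 8 was not alone in this, since chromosome 11 went from 1.246–1.515 to 2.42–3.03. Chromosome 12 went the other way, from 2.52–3.66 to 1.295–1.84. Stretch 13, the distal end from 120 to 130 Mb with 107 protein-coding genes, had sorted background ratios of 3.48 and 2.83 for the WT pair, with 3.09 and 2.57 for Suv39h dn, and its peak density was 3.01–4.47 times that of the other autosomes. The stretches from 10 to 20 Mb and from 20 to 30 Mb had backgrounds of 1.68–2.07 and 1.74–2.24 and densities of 2.36–3.17 and 2.31–3.05. The stretch at the centromere end, from 0 to 10 Mb, had a background of 0.98–1.12 and a density of 2.02–2.30. The middle of the chromosome behaved otherwise: the stretches from 30 to 70 Mb had sorted densities of 1.02–1.60 with backgrounds of 0.78–1.00. In asynchronous cells the same distal end had a density of 1.47–1.88 and a background of 1.31–1.47.

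The gene-poor stretch from 50 to 60 Mb, with 20 protein-coding genes and 37.6% GC, was the sparsest one in asynchronous cells. Its density was 0.69–0.89 times that of the other autosomes there, while its background was still 1.05–1.18. The gene-rich stretch from 70 to 80 Mb, with 132 protein-coding genes, was dense in whole cells, with 1.66–2.07 in asynchronous and 2.46–3.38 in mitotic libraries. In sorted chromosomes it was passed by stretches 1, 2, 3, 11, 12 and 13 in every library. Replicate 1 of Suv39h dn mitotic ESCs had a background ratio of 5.0 between 20 and 30 Mb, from few peaks.

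**Figure D3:**
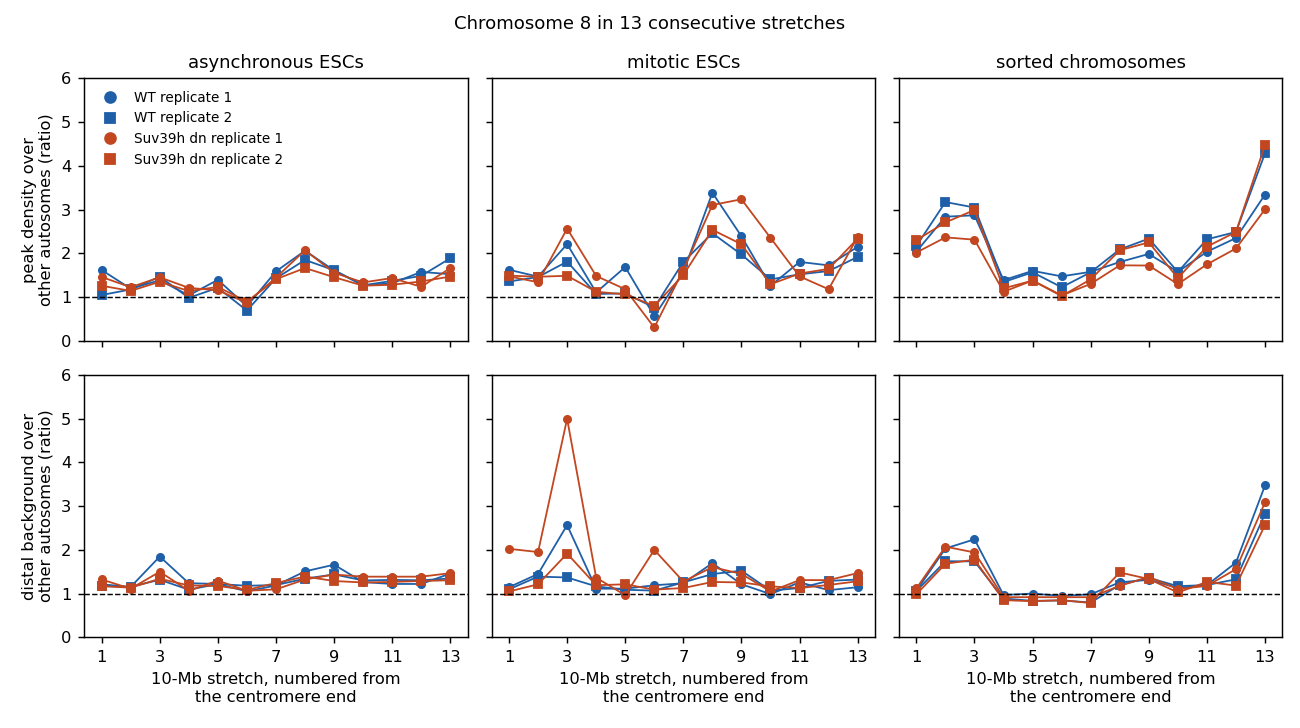
Peak density and distal background of the 13 stretches of 10 Mb along chromosome 8, as ratios to the other autosomes (vertical axes) against the number of the stretch counted from the centromere end, by preparation; each line is 1 library and the dashed line at 1 means no excess. The asynchronous backgrounds lie between 1.05 and 1.85 throughout, and the sorted ones run from 0.78 in the middle to 3.48 at the distal end.

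In windows of 1 Mb the picture was the same at finer grain. The median chromosome 8 window held 1.30–1.5 times as many peaks as the median window of the other autosomes in asynchronous cells and 1.78–2.29 times as many in sorted chromosomes. Of the 126 windows, 64.3–65.9% were above the autosomal median in asynchronous cells and 74.6–83.3% in sorted chromosomes. Among windows with at least 5 distal peaks, 78.9–86.2% had a background above that of the other autosomes in asynchronous cells, against 42.1–52.4% of windows elsewhere. In sorted chromosomes the same share was 44.8–57.1% against 34.2–41.1%. A typical window thus stood above the rest in background in asynchronous cells, and about as many windows were above as below in sorted chromosomes.

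The 10 densest windows held 15.9–19.2% of the chromosome's peaks in asynchronous cells, 25.3–34.6% in mitotic cells and 18.5–23.3% in sorted chromosomes. Which window was densest depended on the preparation. In 7 of the 8 libraries of whole cells it was 70–71 Mb, with 50 protein-coding genes, 51.3% GC and between 27 and 102 peaks. It contains Mau2, a cohesin loader, Jund, an AP-1 transcription factor, and Upf1, a helicase of nonsense-mediated mRNA decay. In sorted chromosomes it was 20–21 Mb, with 182 and 232 peaks for the WT pair and 163 and 186 for the other pair, against 26 to 79 in asynchronous cells. That window has only 6 protein-coding genes, among them the defensin gene Defb33, and 42.0% GC. It lies among the defensin clusters, whose near-identical copies can share reads, so its counts are uncertain.

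The order of windows was stable within a preparation and less so between them. Spearman's rho over the 126 windows was 0.83–0.92 between asynchronous libraries, 0.93–0.97 between sorted libraries and 0.64–0.80 between both kinds. The rho of peak number with gene number was 0.61–0.84 on chromosome 8 and 0.41–0.73 over the 2277 windows of the other autosomes, and with GC content it was 0.49–0.85 on chromosome 8. Windows of a library share its depth, so these are descriptions. Because base composition and gene number track peak number, chromosome 8 was compared with the other autosomes within 5 classes of windows by each, of about equal size for GC content and less so for gene number. Its density was higher in every class of GC content, by 1.09- to 1.52-fold in asynchronous, 1.12- to 2.03-fold in mitotic and 1.39- to 2.66-fold in sorted libraries. Within classes of gene density the ratios were 1.19–1.58, 1.14–2.18 and 1.58–2.50.

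Window counts were tested with limma on log2 peaks scaled to all peaks of the library, over 2506 windows of all chromosomes. For genotype 0 of the 126 chromosome 8 windows passed an adjusted p of 0.05, and 0% of all windows did. At an unadjusted p of 0.05 there were 7 of 126, against 5.27% of all windows. Without replicate 2 of Suv39h dn mitotic ESCs, which leaves the shortest list alone in its group, 9 windows passed. The median estimate on chromosome 8, Suv39h dn minus WT, was 0.02, against 0.11 on other chromosomes. The largest estimates were 0.86 at 59–60 Mb, 0.82 at 67–68 Mb, which holds the arylamine acetyltransferases Nat1, Nat2 and Nat3, and 0.81 at 55–56 Mb with Adam29 and Glra3. The smallest were −0.72 at 28–29 Mb, −0.60 at 89–90 Mb, which holds Sall1, a transcription factor that interacts with Nanog in ESCs, and −0.58 at 118–119 Mb with the cadherin Cdh13. All 6 had an adjusted p of 0.843 by limma.

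Between sorted chromosomes and asynchronous cells, 27 windows of chromosome 8 were higher and 1 lower, against 6.38% and 12.6% of all windows. These counts follow from the share for which the chromosome was chosen, and nothing is read from them beyond their places. The median estimate was 0.35, 0.51 above that of the other chromosomes, and 94 of 126 windows were above 0. Of the 46 windows in stretches 1 to 3 and 12 to 13, 22 were higher, and of the 80 in stretches 4 to 11, 5 were higher and 1 lower. Stretch 1, at the centromere end, had 1 higher window among its 7. When counts were scaled to the peaks of chromosome 8 alone, which takes out the share of the whole chromosome, 8 windows were higher and 4 lower in sorted chromosomes. Without 1 library the windows called in either direction numbered 15 to 45. They were at least 1.5 times fewer without either WT library of asynchronous or sorted DNA, with 16 to 18, or without replicate 2 of the Suv39h dn sorted chromosomes, with 15, and more without either Suv39h dn mitotic library, with 45.

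The window with the largest rise was 10–11 Mb, which holds Tnfsf13b, a B cell survival factor, and the unconventional myosin gene Myo16. The asynchronous libraries had 2, 11, 7 and 25 peaks there, WT before Suv39h dn, and the sorted libraries 47, 73, 58 and 42. The groups did not overlap, and the log2 estimate was 2.25 ± 0.32 (SE, limma, adjusted p = 0.000559). At 115–116 Mb, with the transcription factor gene Maf, the counts went from 2, 6, 5 and 11 to 29, 44, 28 and 37, an estimate of 2.19 ± 0.40 (SE, limma, adjusted p = 0.00193). At 58–59 Mb, with the glycosyltransferase gene Galntl6, the estimate was 2.00 ± 0.61 (SE, limma, adjusted p = 0.028). All these windows are poor in genes. They were picked as the largest estimates, and counts were scaled to all peaks of the list. Each estimate thus includes the rise in share for which the chromosome was chosen, and the p-values do not set these windows apart from the rest of chromosome 8. Whether they pass when scaled to chromosome 8 alone is not reported here.

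In the other direction, the window at 64–65 Mb had 20, 49, 25 and 57 peaks in asynchronous ESCs, WT first, and 21, 34, 26 and 22 in sorted chromosomes. Counts overlapped, and scaled to the peaks of each list the estimate was −0.85 ± 0.25 (SE, limma, adjusted p = 0.0235). It holds Msmo1, a sterol oxidase, Cpe, a carboxypeptidase that processes prohormones, and Klhl2. The windows at 128–129 Mb, with the receptor Nrp1 and the integrin Itgb1, and at 89–90 Mb, with Sall1, had estimates of −0.84 and −0.60 that did not pass, with adjusted p of 0.0571 and 0.205 by limma.

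Between mitotic and asynchronous cells, 9 windows were higher and 0 lower, against 3.35% and 0.638% of all windows, and scaled to chromosome 8 alone there were 0 and 0. The calls hung on single libraries: without 1 of them there were 0 to 36, with 0 in 6 cases, namely either WT asynchronous library, either WT sorted library, replicate 1 of WT mitotic ESCs or replicate 2 of Suv39h dn asynchronous ESCs. Without either Suv39h dn mitotic library there were 21 and 36, and without Suv39h dn asynchronous replicate 1 or either Suv39h dn sorted library 2 to 5. The 3 largest estimates were 1.39 ± 0.32 at 84–85 Mb, 1.34 ± 0.35 at 20–21 Mb and 1.25 ± 0.27 at 123–124 Mb (SE, limma, adjusted p = 0.0308, 0.0385 and 0.0268). The first and the last are gene-rich, with 39 and 27 protein-coding genes, among them Calr, a chaperone of the endoplasmic reticulum, Junb, and the Fanconi anaemia gene Fanca. The smallest estimates lay in windows of long genes, −1.22 at Pard3, −1.04 at Csmd1 and −1.01 at Wwox, and none passed, with adjusted p of 0.0543, 0.148 and 0.0538 by limma.

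**Figure D4:**
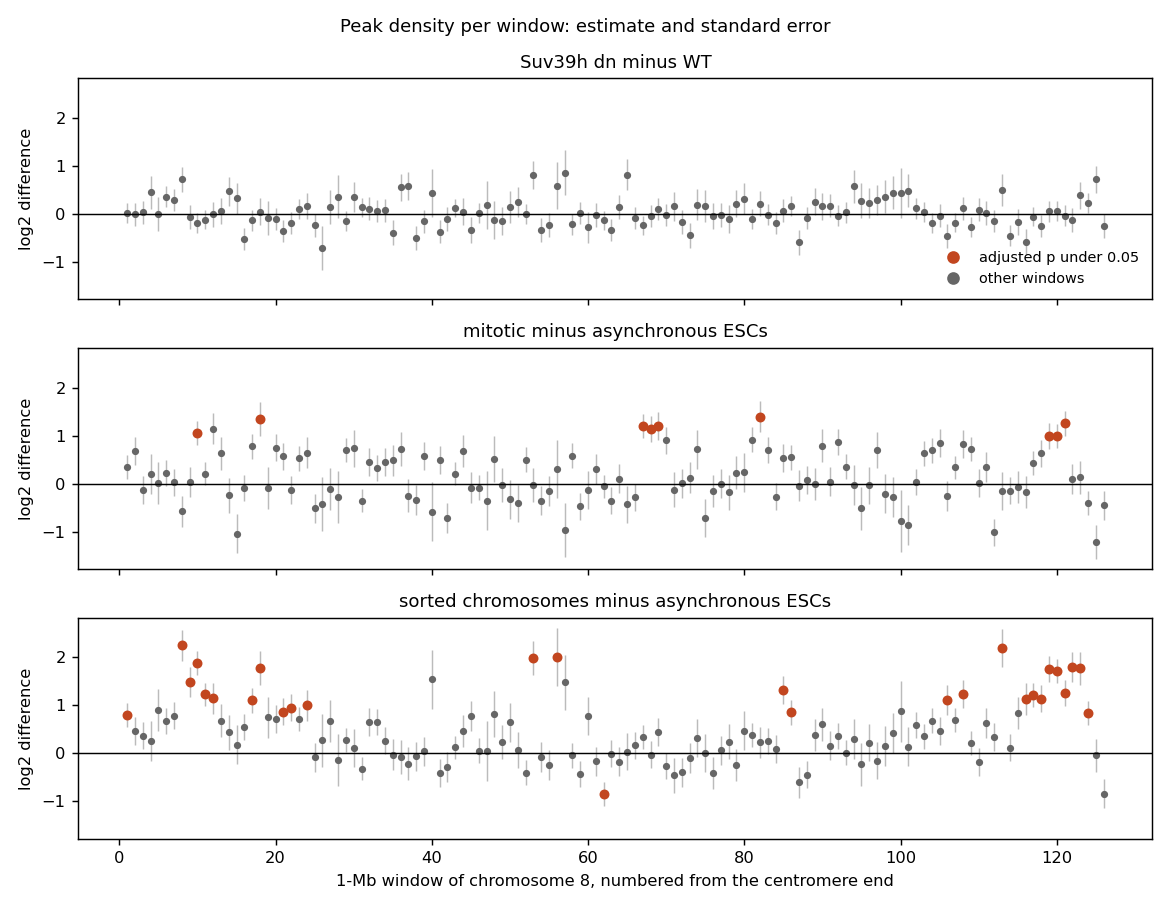
Estimates for the 126 windows of 1 Mb along chromosome 8 (log2 difference, vertical axis) in order from the centromere end, for genotype, mitotic minus asynchronous and chromosomes minus asynchronous; each point is 1 window with its SE, and red points passed an adjusted p of 0.05. Of the 27 windows higher in sorted chromosomes, 22 lie in stretches 1 to 3 and 12 to 13, with 1 of them in stretch 1.

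Overlapping peaks of the 12 libraries merged into 18786 regions on chromosome 8, which is 8.12% of all regions of the 19 autosomes and X. A single library held 60.9% of them, compared with 63.0% of regions on other autosomes. Regions seen only in sorted chromosomes made up 65.3%, compared with 55.7% elsewhere, and regions seen only in asynchronous cells 21.8%, compared with 29.8%. Of these regions, merged over all 12 libraries and kept whether or not fragments were recovered, those in all 4 libraries of a preparation numbered 845 on chromosome 8 in sorted chromosomes, which is 13.6% of all such regions. In asynchronous cells they numbered 805, or 7.72%, below the 8.12% of all regions.

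Of the 845 sorted regions, 533 were in no asynchronous library, and chromosome 8 held 17.2% of all regions of that kind, against 8.12% of regions of any kind. They were most frequent from 20 to 30 Mb with 112, in the last stretch with 71 and from 10 to 20 Mb with 66. There were 33 from 0 to 10 Mb and 12 from 90 to 100 Mb. Of the regions in all 4 asynchronous and no sorted library there were 475, or 7.26% of such regions, below that 8.12%. These peaked in the gene-rich middle with 63 between 70 and 80 Mb. The 37 regions found in all 12 libraries were 0.197% of the chromosome's regions, against 0.150% elsewhere, and 67.6% of them lay at promoters.

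Of the 5 strongest of those 37 regions, 4 held repeated DNA, by a masked summit or by words shared with the 18S copy. Described here are 3 of the 5. At chr8:15519783-15520111, 400920 bp from Myom2, the folds ran from 25.0 to 35.5 over the 12 libraries. This site had neither sign of repeated DNA, but ribosomal sequences other than the 18S copy were not searched, so its place is uncertain too. The site near Cd209a had 14.8 to 29.2, and a masked repeat in an intron of Pcnx2 had 28.5 to 37.2 in whole cells and 13.8 to 17.7 in sorted chromosomes. Such sites were a small part of the 18786 regions.

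Promoter peaks, within 1000 bp of an annotated transcript start, made up 34.4% and 26.9% of the chromosome's peaks in the WT pair of asynchronous ESCs, with 30.8% and 22.8% in the Suv39h dn pair. Mitotic ESCs had 51.4% and 41.2% for WT, with 53.2% and 45% for Suv39h dn. Sorted chromosomes had 25.1% and 25.5% for WT, with 24.5% and 28.3% for Suv39h dn. Mitotic lists were thus richest in promoters, and they were also the shortest lists. On the other autosomes the share was higher in every library but the shortest, at 25.5–57.4%. The difference to the other autosomes differed between genotypes by 1.94 percentage points (exact permutation test, two-sided, p = 0.343, adjusted p = 0.859), with 0% of chromosomes called, adjusted or not. Between sorted chromosomes and asynchronous cells it differed by −3.29 percentage points. The exact permutation test of the spread among all 3 preparations gave p = 0.405 and adjusted p = 0.619, with 20% of chromosomes called.

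Some motifs at the summits differed in frequency between preparations. Within 201 bases around the summit, the Ctcf motif stood in 10.2–14.1% of chromosome 8 peaks of asynchronous cells and 8.48–12.3% of those of mitotic cells, and in 1.32–1.58% of those of sorted chromosomes. On the other autosomes the same windows held it in 8.90–13.2%, 7.81–10.1% and 1.39–1.62%. The Oct4 octamer ATGCAAAT stood in 2.89–3.65% of asynchronous, 2.56–3.36% of mitotic and 0.26–0.44% of sorted chromosome 8 peaks. The other autosomes had it in 2.911–3.245%, 1.425–2.279% and 0.275–0.320%, so the fall in sorted chromosomes was not particular to chromosome 8. The Sp/Klf motif was found in 11.5–16.7% of asynchronous, 19.3–26.9% of mitotic and 5.90–6.62% of sorted peaks of chromosome 8, and in 7.64–9.03% of sorted peaks elsewhere, so that for sorted chromosomes the 4 values of chromosome 8 lay below the 4 of the other autosomes. The Esrrb motif TNAAGGTCA stood in 0.93–1.58% of asynchronous and 0.97–1.32% of sorted peaks, which overlapped, and in none of the 156 of the shortest list. The other mitotic lists had it in 1.24% and 1.26% for WT and 0.36% for replicate 2 of Suv39h dn, which is 4 peaks. On the other autosomes those lists had 0.98%, 1.19% and 0.82%, and the difference was not tested. A match is a string of letters and does not show that a factor was bound.

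More genes of chromosome 8 than of other autosomes had a promoter peak in every library. Asynchronous ESCs had 43.5% and 64.7% with WT cells, then 41.3% and 67.9% with mutant cells, against 31.4%, 52.5%, 31.5% and 55.9% on the other autosomes. Mitotic ESCs had 26.7%, 35.4%, 7.69% and 41.9% in the same order, against 16.2%, 25.0%, 3.55% and 29.3%. Sorted chromosomes had 57.4%, 72.7%, 61.3% and 62.4%, against 37.6%, 52.0%, 43.3% and 43.1%. Of the 1040 protein-coding genes, 341 had a promoter peak in all 4 asynchronous libraries, which is 32.8% compared with 22.2% elsewhere. In all 4 sorted libraries there were 431, or 41.4% compared with 21.2%, and in all 4 mitotic libraries 64, or 6.15% compared with 1.98%. No promoter peak in any library was found for 129 genes, 12.4% compared with 24.5% elsewhere.

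All 12 libraries had a promoter peak at 38 genes, 3.65% of the chromosome's genes compared with 1.02% elsewhere. They include the chromatin genes Smarca5, the ISWI remodelling ATPase, Asf1b, a histone chaperone, and Gatad2a, a subunit of the NuRD complex. Lig4, the ligase of non-homologous end joining, Fanca and Haus8, a subunit of the augmin complex of the spindle, are also among them. Others serve general upkeep, such as Calr, the RNA helicase Ddx39 and the ribosome assembly factor Nob1.

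Genes of chromosome 8 were also grouped by their known roles. For comparison, 32.8% of all its protein-coding genes had a promoter peak in all 4 asynchronous libraries. In all 4 mitotic libraries it was 6.15%, and in all 4 sorted libraries 41.4%. The share of all genes with a peak in some library of a preparation was not counted, and whether any list differs from all genes was not tested. All 14 chromatin genes had a promoter peak in some asynchronous and some sorted library, 10 in all 4 asynchronous and 10 in all 4 sorted libraries. Smarca5 had folds of 17.1, 20.5, 15.7 and 21.5 in asynchronous ESCs, the WT pair first. Mitotic folds, in the same order, were 9.92, 13.4, 6.37 and 8.38. Sorted folds were 11, 8.74, 7.14 and 12. Each asynchronous library thus stood above every mitotic and sorted one. Sap30, a subunit of the Sin3 deacetylase complex, was in 11 libraries, with 9.51 to 11.9 in asynchronous and 4.44 to 7.17 in sorted ones. Hmgb2, a chromosomal high-mobility-group protein, had folds of 11.1 to 17.4 in asynchronous and 5.23 to 8.93 in sorted libraries and was missed only in the shortest list. Ctcf was the opposite in coverage: all 4 sorted libraries had a peak, with folds of 7.65, 7.71, 6.95 and 6.44, and in asynchronous cells only both replicates 2 did, with 5.67 and 3.86.

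Of the 17 genes of cell cycle and chromosome maintenance, 10 had a promoter peak in all 4 asynchronous, 4 in all 4 mitotic and 11 in all 4 sorted libraries. Lig4, Haus8 and Fanca were in all 12. The centromere genes Cenpn and Cenpu were in 11 libraries, while Cenpt, whose product links the centromere to the kinetochore, was in the 4 asynchronous libraries only, with folds of 7.19, 7.36, 10.4 and 7.31. The cell cycle regulator E2f4 had a peak in 2 libraries, both replicates 2 of asynchronous cells, at 11.7 and 8.93. Rbl2, a pocket protein that works with E2f4, was in 3 asynchronous and all 4 sorted libraries and in no mitotic one, and Tfdp1 in 3 sorted libraries only. Terf2 and Terf2ip, of the shelterin complex that protects telomeres, had peaks in 6 and 7 libraries. Orc6, of the origin recognition complex, shares its promoter peak with Vps35, so their folds are one measurement.

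Among 15 housekeeping genes, 10 had a promoter peak in all 4 asynchronous and 8 in all 4 sorted libraries. The ribosomal protein gene Rpl13 was in 9 libraries, with 5.65 to 9.86 in asynchronous cells. Polr2c, an RNA polymerase II subunit, was in 6 libraries of whole cells and in no sorted library. Cnot1, the scaffold of the deadenylase complex, had folds of 9.13 to 18.8 in asynchronous and 4.78 to 6.86 in sorted libraries. Members of this list were not alike, since Lamp1, a lysosomal membrane protein, had a peak in all 4 sorted libraries and in 1 asynchronous library.

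The 16 lineage transcription factors are mostly silent in ESCs. Only Zfhx3 had a promoter peak in all 4 asynchronous libraries, none had one in all 4 mitotic libraries and 5 had one in all 4 sorted libraries. Counting a peak in any library of a preparation, 10 had one in asynchronous cells, 2 in mitotic cells and all 16 in sorted chromosomes. Sox1, a neural factor, had 5.90, 4.13, 5.00 and 5.37 in sorted chromosomes. Foxf1, Foxl1 and Hand2, factors of mesoderm, and the erythroid factor Klf1 had peaks in 2 or 3 sorted libraries and in no library of whole cells. Maf had folds of 7.78, 6.58, 5.96 and 6.99 in sorted chromosomes and 4.37, 4.37 and 4.76 in 3 asynchronous libraries. Irx3 went the other way, with peaks in 3 asynchronous, 2 mitotic and 1 sorted library. Over all protein-coding genes of chromosome 8 the share with a promoter peak in all 4 libraries was 41.4% in sorted chromosomes and 32.8% in asynchronous cells, also higher in sorted ones, and whether the lineage genes differ from it was not tested.

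Of the 10 genes of pluripotency and the early embryo, 2 had a promoter peak in all 4 asynchronous libraries, Zfp42 and its neighbour Triml2. Another 5 had 3 of the 4. Over all protein-coding genes of the chromosome, 32.8% had a promoter peak in all 4 asynchronous libraries. Klf2, a factor of naive pluripotency, had peaks in 9 libraries, with 9.01, 4.52 and 10.7 in 3 sorted libraries and 4.67 to 7.16 in 3 asynchronous ones. Cdh1, the E-cadherin of the ESC surface, and Smad1, a mediator of BMP signals, were in all 4 sorted libraries. Irf2 was in all 4 sorted libraries and 1 asynchronous library, and Sall1 in 2 of each. Triml1 had no promoter peak in any library.

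The gene clusters were the emptiest places. Of the 22 alpha-defensin genes 20 had no promoter peak in any library, and of the 24 beta-defensin genes 18 had none. Over all protein-coding genes of the chromosome the share without one was 12.4%. Even so, the window around Defb33 held the most peaks of any in sorted chromosomes. Defb1 was an exception, with a peak in all 4 asynchronous libraries at 4.18, 5.91, 5.04 and 11.1. Of the 17 carboxylesterase genes 9 had none, and Ces1a had the strongest sorted promoter peak of the clusters, at 15.9, 15.7, 17.1 and 17.4, against 4.59 and 6.44 in 2 asynchronous libraries. Near-identical copies in these families can share reads, so their peaks are uncertain. All 4 metallothionein genes had a sorted peak, and Mt2 was in all 4 asynchronous libraries.

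**Figure D5:**
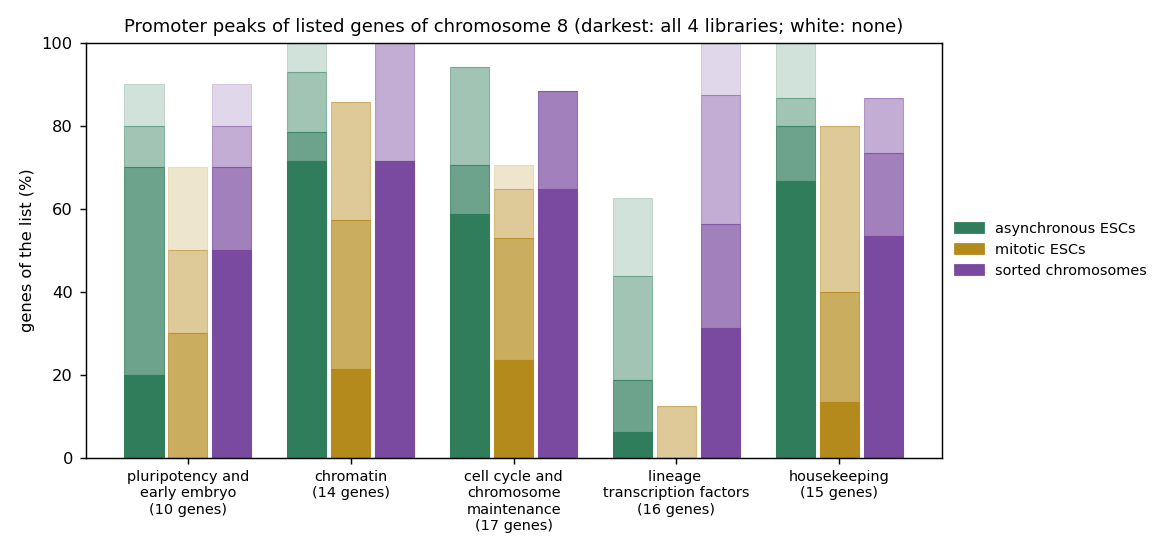
Share of the genes of each list with a promoter peak (percent, vertical axis), by list and preparation; each bar is stacked by the number of libraries with a peak, from all 4 (darkest, at the foot) to 1 (palest), and the white rest had none. Chromatin, cell cycle and housekeeping genes are mostly covered in cells and in sorted chromosomes, while lineage transcription factors have 1 of 16 in all 4 asynchronous and 5 of 16 in all 4 sorted libraries. Over all protein-coding genes of the chromosome these shares are 32.8% and 41.4%.

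Zfp42 encodes a zinc finger protein used as a marker of naive ESCs, and within 50 kb of it 8 regions were called in at least 4 libraries. The gene lies on the minus strand at chr8:43295063-43306980. Its promoter region, printed above from the start outwards, had folds of 10.4, 10.7, 8.56 and 11.5 in asynchronous ESCs, WT first. In mitotic ESCs it had 7.03 and 8.77 for WT and 7.90 for replicate 2 of Suv39h dn. The sorted values were 4.21 and 5.81 for WT, with 7.51 for replicate 1 of Suv39h dn. Of the asynchronous folds 3 were above all others, replicate 1 of Suv39h dn was below one mitotic fold, and the 2 libraries without a call were the shortest list and replicate 2 of the Suv39h dn sorted chromosomes.

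The site 14005 bp upstream was called in each library of whole cells and in no sorted library. WT folds, asynchronous before mitotic, were 9.32, 13.6, 10.1 and 9.38. Suv39h dn folds were 8.69, 15.9, 5.27 and 8.39. The shortest list held this region and none of the other 7. The site with the Ctcf motif had 5.88, 8.21, 6.72 and 10.1 in asynchronous ESCs, WT first, and no call in mitotic cells or sorted chromosomes. In no preparation was any of them called in both libraries of a genotype and neither library of the other.

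Regions called in both libraries of 1 genotype and neither of the other were counted in each preparation. In asynchronous ESCs 121 of 6397 chromosome 8 regions were called in Suv39h dn only and 34 in WT only, which is 1.89% and 0.531%, against 2.44% and 0.751% of all regions. In mitotic ESCs 11 of 1760 were in Suv39h dn only and 50 in WT only, against 0.594% and 2.66% of all regions. In sorted chromosomes 250 of 13724 were in Suv39h dn only and 474 in WT only, against 2.1% and 2.71%. Shares on chromosome 8 were near those of the whole genome. The one that stood farthest from it was WT only in sorted chromosomes, at 3.45% compared with 2.71%.

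The strongest of these regions were named by rank of fold. In asynchronous ESCs the Suv39h dn regions were a masked repeat 14696 bp from Defa21 with folds of 8.52 and 11.9, the printed intron of Tfdp1, the partner of E2F factors, with 8.11 and 10.0, and a site near 7420700N18Rik with 5.97 and 10.7. The WT regions lay 10133 bp from Nkx6-3, with 6.93 and 10.7, in an intron of the remodeller gene Chd9, with 5.76 and 7.30, and in an intron of the phosphodiesterase gene Pde4c, with 4.92 and 8.90. In mitotic ESCs the Suv39h dn regions lay in an intron of Tusc3, with 8.88 and 7.35, 158627 bp from Cntnap4, with 5.66 and 7.71, and 18725 bp from Atp6v1b2, with 5.98 and 6.54. The WT regions described here lay in an intron of Csgalnact1, with 9.17 and 9.16, and in a masked repeat 30210 bp from Rhou, with 8.15 and 7.17. That repeat is in an exon of Gm23647, and its middle 51 bases occur 2 times in the reference, so its place is uncertain.

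In sorted chromosomes the Suv39h dn regions were a masked repeat near Zfp958, with 7.85 and 7.43, a site 2163 bp from Hsd17b2, a steroid dehydrogenase, with 5.66 and 9.05, and the printed promoter side of Afg3l1, a mitochondrial protease gene, with 5.93 and 6.63. The WT regions were a site at Cldn22, a claudin, with 7.12 and 8.41, one in an intron of Clgn, a chaperone of the testis, with 6.25 and 7.81, and one in an intron of Nrg1, a ligand of ErbB receptors, with 5.90 and 10.5. The middle 51 bases of the Cldn22 site occur 2 times in the reference, the other copy at Cldn24. Those of the Nrg1 site occur 22 times, on 8 other chromosomes too, so the places of both sites are uncertain. With 2 libraries a side and lists of different length, no region carries a test of its own.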

How the data were processed

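ATAC-seq peak lists of 12 libraries were used as deposited. Per the study's methods, the authors trimmed paired reads with Trim Galore 0.4.4, aligned them to mm10 with Bowtie2 2.2.9, sorted them with SAMtools 1.2, discarded duplicates, mitochondrial reads and pairs without proper mapping, offset the read ends, retained fragments of nucleosome-free length and ran MACS2 library by library. The authors also state that blacklisted regions were removed, and whether this was done in the deposited lists was not checked. The deposited lists give each peak a fold enrichment, which is a ratio of summit fragments to local background with 1 added to both, a −log10 p-value and a −log10 q-value from MACS2, and an integer score that the authors' MACS2 derived from the q-value. The score was not used.

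The reference and gene models were GRCm38.p6 and GENCODE vM21. Peaks with a summit within 1000 bp of an annotated transcript start were called promoter peaks and the rest distal. Summit fragments and background were recovered as the whole number and value that give both the fold and the Poisson p-value, up to a −log10 p of 60, for 437289 peaks. A library's depth is not part of its list. The chromosomes were compared by exact permutation of library labels, genotypes within preparations or preparations within genotypes, with smallest possible p-values of 0.00926 and 0.000741, and adjusted by Benjamini-Hochberg over 20 chromosomes. Peak summits in windows of 1 Mb with a mean of at least 3 were tested with limma 3.58.1 with a mean trend on log2 of the share plus a pseudocount of 0.5. Regions merge peaks that overlap by 1 bp or touch. Python 3.11.15, numpy 2.4.6, scipy 1.17.1, pandas 2.3.3, matplotlib 3.10.9 and R 4.3.3 were used, and the tests were tried on simulated data.

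The text names the 3 windows and the 3 genotype-specific regions per direction that were largest by estimate or by rank of fold, the 5 strongest regions of all 12 libraries, Zfp42, and genes from lists of known roles. From each list the first genes in list order were to be named, and genes beyond the first 6 and in the clusters were chosen after their values were seen. Some regions and genes that these rules name are not reported here. The members and lists were chosen with earlier results of these data known. Replicate numbers were not used to pair libraries in the main tests. Deviations of same-numbered libraries correlated with r from −0.20 to 0.30 over 2506 windows, above 0.1 in 3 of 15 pairs. Between genotypes of the same preparation, r was 0.24 in asynchronous cells, 0.30 in sorted chromosomes and 0.087 in mitotic cells. Across preparations it ran from −0.20 to 0.12. Same-numbered libraries of a preparation thus shared some deviation in asynchronous cells and sorted chromosomes, and its source was not tested. Alternatives were a stricter q-value of 1e-05, equal list lengths, 5-Mb windows, another pseudocount, no filter, means, promoter peaks, a replicate block, each library left out, and scaling to the window's own chromosome.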

Additional observations from a re-analysis of the deposited data

How the results depend on the processing

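Of 200 alternative values, 161 kept their direction and their side of the threshold or moved little, 30 moved further, 5 passed a threshold and 4 changed sign. The genotype difference of the distal background changed sign with the stricter q-value (−0.064), with means in place of medians (−0.23) and around promoter peaks (−0.12), and over single libraries left out it ran from −0.014 to 0.070. None of these passed the adjusted threshold. The test of all 3 preparations in distal background passed it with the stricter q-value, with means and around promoter peaks. There sorted chromosomes stood 0.56, 0.22 and 0.30 above asynchronous cells, and with single libraries left out this difference ran from 0.045 to 0.074. For the promoter share the test of preparations passed with equal list lengths. The difference of sorted chromosomes to asynchronous cells was then −2.95 percentage points, and it ran from −4.62 to −1.96 with single libraries left out. The log2 genotype difference of the chromosome's share was −0.21 with the stricter q-value, and the gap of sorted to asynchronous libraries was 0.75 with it and 0.42 for promoter peaks. The gap of mitotic to asynchronous libraries was 0.50 with equal lengths. Common-region fragments ran from −0.14 to −0.01 and the promoter share by genotype from 0.20 to 3.68 with single libraries left out.

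Chromosome 8 windows called between mitotic and asynchronous cells, 9 in all, were 0 with the stricter q-value, 49 with equal lengths, 31 with a pseudocount of 2, 0 scaled to the chromosome and 0 to 36 without single libraries. For sorted chromosomes the 28 became 13 with the stricter q-value, 12 windows of 5 Mb, 12 scaled to the chromosome and 15 to 45. Genotype windows numbered 0 to 9. The cause of these moves was not tested. The replicate block changed no call, with 0, 9 and 28 windows, and an adjusted p of 0.868 for genotype and 0.448 for preparation in the exact permutation tests of the distal background. Scaling to the chromosome, the background of promoter peaks and leaving out dense windows were chosen after seeing the data. Mitotic values rest on the fewest peaks, and the number of sequenced fragments was not known.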
